A study of Mus musculus with 8 samples.

Results

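Islets of Tcf7 -/- mice were compared with islets of Tcf7 +/+ littermates, all aged 20 weeks and fed a diet with 45% fat, on the C57BL/6 background. The comparison took 4 of the 8 RNA libraries of the series, 2 labelled knockout and 2 labelled wild type. Levels are in RPM, reads scaled to the total of the library, and 13013 genes that reached 1 RPM in 2 or more of the 4 libraries were tested on log2(RPM + 1). The other 4 libraries, 2 of each genotype, came from animals aged 8 weeks on 10% fat. Their diet label says low-fat, while their treatment label says regular chow. They entered the estimate of spread and a test of whether the genotype difference changed between the settings. The sources do not state which part of Tcf7 was deleted, at which age the diet began, or whether libraries came from different animals. The p-values therefore refer to libraries. In limma their spread comes from all 8 libraries and drawn towards a trend over genes, with 4 residual and 15.2 prior degrees of freedom. A standard error given below is thus not the spread of the 4 libraries of 20 weeks alone. Values of a group are given for replicate 1 and then replicate 2.

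Tcf7 encodes TCF-1, a DNA-binding factor with an HMG box that recruits beta-catenin to target genes in Wnt signalling and is best known from T cell development. In the islet, a cluster of hormone-producing cells in the pancreas, beta cells secrete insulin. Their identity rests on factors such as MAFA, PDX1 and NKX6-1. Under metabolic stress beta cells can lose such factors and gain genes that mature beta cells keep low, a state called dedifferentiation.

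Tcf7 (ENSMUSG00000000782) was no lower in knockout-labelled islets than in wild type. It had 4.56 and 2.56 RPM in them, against 1.58 and 0.991 RPM in wild type, so that both knockout-labelled libraries lay above both wild-type libraries. The log2 fold change was 0.97 ± 0.21 (standard error) and did not pass the threshold of 0.05 (limma adjusted p = 0.103). Other tests differed. On reads recovered from the RPM values, DESeq2 called Tcf7 higher (adjusted p = 0.0240) and edgeR did not (adjusted p = 0.325). In the 4 libraries of 20 weeks alone limma also called it higher (adjusted p = 0.000297), but there the spread of single genes carried no weight. A value summed over the gene cannot show whether the deleted part was missing, and a gene on the other strand, A630014C17Rik, overlaps Tcf7 in the annotation. Genotype is therefore taken from the labels alone, and every direction below rests on them. Totals were 58.7 and 69.4 M reads in the knockout-labelled libraries and 169 and 67.6 M in wild type, of which the listed genes held 55.7% to 61.2%. Beta cell genes were present in each library (Ins2 at 22357 and 27831 RPM, against 17271 and 21596 RPM in wild type), and the T cell marker gene Cd3e had 0 and 0.0288 RPM, against 0.0118 and 0.0296 RPM.

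At 20 weeks 9 genes differed between the genotypes by limma, 0.0692% of those tested. Of these, 5 were higher (0.0384%) and 4 were lower (0.0307%) in the knockout-labelled islets. The genes that rose included Aldh1a3 and Stra6, both of the retinoid pathway. Those that fell were Mafa, a factor of mature beta cells, the securin gene Pttg1, the acyl-CoA synthetase gene Acsf2 and the NAD synthesis gene Nmnat2. In bulk islets a smaller number of cells of a type and less RNA per cell cannot be told apart. Pttg1 and Acsf2 reached 1 RPM only in wild type, and CN725425 only in knockout-labelled islets. For such genes the filter itself favours groups that lie apart.

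Aldh1a3 encodes a retinaldehyde dehydrogenase that makes retinoic acid and is widely used as a marker of dedifferentiated beta cells. It stood at 12.9 and 17.2 RPM in knockout-labelled islets, against 3.72 and 3.20 RPM in wild type. The groups lay far apart, with 760 and 1193 reads against 629 and 216 reads in libraries of unequal depth. Its log2 fold change was 1.84 ± 0.21 (limma adjusted p = 0.000319), and the mean in RPM was 4.36 times that of wild type. Leaving out each of the 8 libraries in turn gave log2 fold changes of 1.65 to 2.03. Such a fit leaves a group with no replicate and called more genes than the fit to all 8 libraries. A call kept there is therefore weak support.

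Stra6 encodes the cell surface receptor through which cells take up retinol from its plasma carrier. It stood at 2.89 and 2.62 RPM in knockout-labelled islets and 1.01 and 0.755 RPM in wild type, a log2 fold change of 1.002 ± 0.17 (limma adjusted p = 0.0240). Without wild-type replicate 2 its adjusted p was 0.0733. Stra6 overlaps Ccdc33 on the other strand, which stood at 3.44 and 2.61 RPM, against 1.17 and 0.917 RPM (log2 fold change 0.97 ± 0.19, limma adjusted p = 0.0665). The use of strand in counting is not stated in these sources, so reads of these genes cannot be told apart. In the annotation 5 of the 9 called genes overlap a gene on the other strand (Stra6, Acsf2, Wdr95, Nmnat2 and 1700001K19Rik), and the same limit holds for them. It also holds for 47% of the tested genes with an annotation and for many of the genes named below without a call, among them Lef1, Axin2, Pdx1, Unc13a, Srebf1, Rarb and Fn1.

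Wdr95, which encodes a protein with WD repeats, had the largest log2 fold change of the 13013 genes in this fit, at 3.08 ± 0.39 (limma adjusted p = 0.000729). It stood at 46.8 and 13.6 RPM in knockout-labelled islets and at 3.82 and 1.04 RPM in wild type. Within each genotype replicate 1 was more than 3 times replicate 2, with ratios of 3.44 and 3.68, yet the groups did not overlap. The clone 1700001K19Rik stood at 20.6 and 11.2 RPM, against 6.11 and 3.71 RPM (log2 fold change 1.49 ± 0.25, limma adjusted p = 0.0240). It lost its call without knockout-labelled replicate 1 or wild-type replicate 2 (highest adjusted p 0.152). The clone CN725425 stood at 2.15 and 2.13 RPM, against 0.562 and 0.444 RPM (1.06 ± 0.17, adjusted p = 0.0107 by limma). Of the 5 genes that rose, all but Aldh1a3 stayed under 1 RPM in each of the 8-week libraries. So near the floor, these libraries add little spread on log2(RPM + 1). The standard errors and adjusted p-values of these 4 genes may therefore be too small.

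Pttg1 encodes securin, which holds back the separation of sister chromatids until anaphase. It stood at 0.307 and 0.259 RPM in knockout-labelled islets, against 3.98 and 2.74 RPM in wild type, and the mean was 0.0843 times that of wild type. These values come from 18 and 18 reads against 672 and 185 reads. The log2 fold change was -1.75 ± 0.20 (limma adjusted p = 0.000319). On a scale with 1 RPM added, a change of a gene this low is understated. Leaving out each of the 8 libraries in turn gave log2 fold changes of -1.96 to -1.54 for Pttg1.

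Acsf2 encodes a mitochondrial member of the acyl-CoA synthetases, which activate fatty acids. It stood at 0.187 and 0.403 RPM in knockout-labelled islets and at 2.94 and 3.06 RPM in wild type (11 and 28 reads against 497 and 207 reads). The log2 fold change was -1.63 ± 0.23 (limma adjusted p = 0.00255), and it was -1.75 to -1.51 without 1 library. Chad, which overlaps it on the other strand, stood at 0 and 0.0432 RPM, against 0.302 and 0.533 RPM. The RPM listed for Chad was in each library below that of Acsf2 in wild type.

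Mafa encodes a transcription factor that drives the insulin genes in mature beta cells. It stood at 6.20 and 3.30 RPM in knockout-labelled islets, against 18.1 and 11.1 RPM in wild type, and the groups did not overlap. The log2 fold change was -1.45 ± 0.26 (limma adjusted p = 0.0360). The call was lost without knockout-labelled replicate 2 or wild-type replicate 1 (highest adjusted p 0.294). Nmnat2, an enzyme of the last step of NAD synthesis that is known from axons, stood at 2.95 and 2.55 RPM, against 9.71 and 6.01 RPM (log2 fold change -1.21 ± 0.22, limma adjusted p = 0.0360). Its call was lost without either knockout-labelled library or without wild-type replicate 1 (highest adjusted p 0.165).

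**Figure D1:**
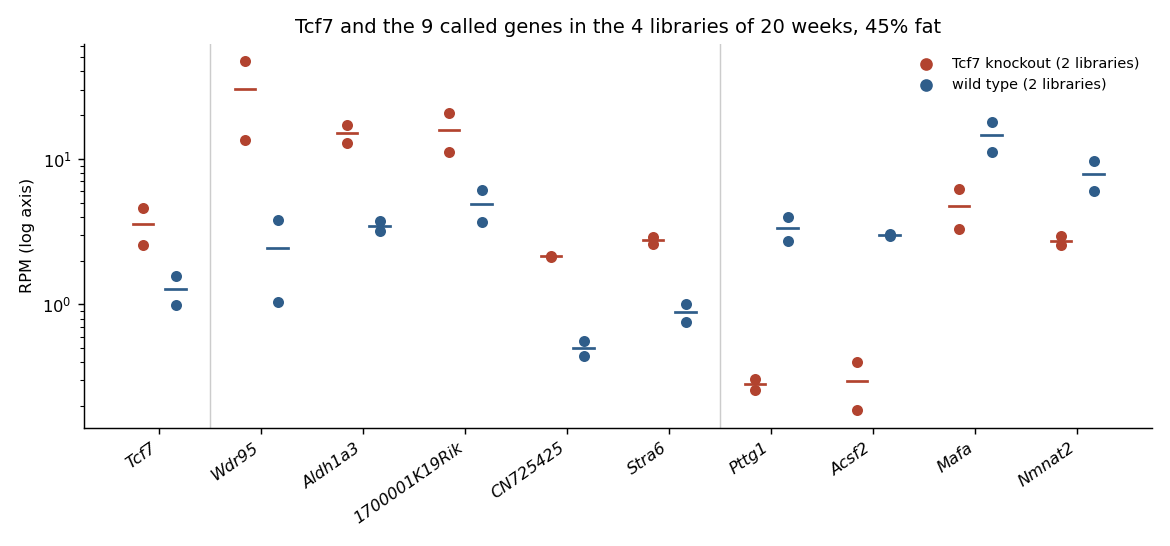
RPM on a log axis of Tcf7 and of the 9 called genes in the knockout-labelled and wild-type libraries of 20 weeks, with 1 point per library and a bar at the mean of each group. In each of the 10 genes the points of the groups do not overlap, and Pttg1 lies at 0.307 and 0.259 RPM in knockout-labelled islets, against 3.98 and 2.74 RPM in wild type.

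The calls depended on the test. On reads recovered from the RPM values, edgeR's quasi-likelihood test called 0 genes. It had 1405 genes below an unadjusted p of 0.05, where limma had 591 (4.54%), and it gave Aldh1a3 an adjusted p of 0.0591 and Pttg1 one of 0.0860. DESeq2 called 139 genes (1.07%), 77 higher (0.592%) and 62 lower (0.476%), among them 8 of the 9, and gave Wdr95 an adjusted p of 0.185. After median-of-ratios scaling limma called Aldh1a3 alone (adjusted p = 0.0128). In the 4 libraries of 20 weeks by themselves limma called 184 genes higher (1.41%) and 86 lower (0.661%), 270 in all (2.07%) with all 9 among them, but there the spread of single genes carried no weight because the prior degrees of freedom were infinite.

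Promoters of called genes were searched for the core sequence that TCF and LEF factors recognise. The RefSeq table holds promoters of 6 of the 9, from 250 bases before to 50 after an annotated start on GRCm38.p6. The core CTTTGAT or CTTTGAA was searched on both strands, and 2842 of 32851 promoters in the table (8.65%) hold it. Among tested genes with a promoter, 644 of 9134 (7.05%) hold it in at least 1. Of the 6 genes 2 hold it: Stra6 in the second of its 4 promoters (chr9:58129099-58129398, plus strand), at position -145 from the start, and Acsf2 (chr11:94601737-94602036, minus strand), at position -27. These promoters are shown with the match in capitals, which reads as the core on the other strand, followed by that of Pttg1 (chr11:43425932-43426231, minus strand), where these letters are not found. A match is a description of the sequence and was not tested for binding.
Stra6 promoter 2: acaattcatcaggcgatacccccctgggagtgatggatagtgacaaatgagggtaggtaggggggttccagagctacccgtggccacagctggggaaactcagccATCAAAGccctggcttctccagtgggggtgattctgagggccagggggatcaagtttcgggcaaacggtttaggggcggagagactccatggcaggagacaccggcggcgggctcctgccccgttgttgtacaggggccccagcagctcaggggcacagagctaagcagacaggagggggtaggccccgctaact
Acsf2 promoter: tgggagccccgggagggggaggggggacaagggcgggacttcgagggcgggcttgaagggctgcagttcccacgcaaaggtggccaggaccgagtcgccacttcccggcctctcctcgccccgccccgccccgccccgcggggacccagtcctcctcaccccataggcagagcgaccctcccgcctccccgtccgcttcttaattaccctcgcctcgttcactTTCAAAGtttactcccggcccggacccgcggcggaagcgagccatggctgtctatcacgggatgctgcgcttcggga
Pttg1 promoter: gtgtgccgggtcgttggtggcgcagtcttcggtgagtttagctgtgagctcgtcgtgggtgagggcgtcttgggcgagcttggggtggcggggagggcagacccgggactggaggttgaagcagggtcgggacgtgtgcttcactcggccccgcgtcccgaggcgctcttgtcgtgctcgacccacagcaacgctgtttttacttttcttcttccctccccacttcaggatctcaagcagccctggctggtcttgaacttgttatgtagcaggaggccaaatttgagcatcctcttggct

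Beyond the calls, the 12 highest and 12 lowest fold changes were taken among genes with an unadjusted p under 0.05, at least 1 RPM on average and groups that did not overlap. They include 7 of the 9 called genes. Groups that do not overlap were common: 1569 of the 13013 genes (12.1%) had both knockout-labelled libraries above both wild-type libraries and 2791 (21.4%) had them below.

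On the high side, Dand5, a secreted antagonist of TGF-beta family ligands, stood at 11.6 and 5.36 RPM, against 3.50 and 2.34 RPM (log2 fold change 1.21 ± 0.26, limma adjusted p = 0.103). Fn1, the matrix protein fibronectin, stood at 1.02 and 4.64 RPM, against 0.337 and 0.710 RPM (1.16 ± 0.36). Lingo2, a leucine-rich repeat protein of the cell surface, stood at 8.84 and 2.90 RPM, against 1.45 and 0.977 RPM (1.49 ± 0.32). The germ cell gene Boll stood at 5.36 and 8.96 RPM, against 1.63 and 3.46 RPM (1.22 ± 0.24). Ncapd2, a condensin subunit, stood at 257 and 347 RPM, against 91.5 and 170.4 RPM (1.25 ± 0.30), and the annotation places a small RNA gene, Scarna10, inside it on the same strand. Gm9846, Gm10076, Gm10180 and Rps27a-ps2 had log2 fold changes between 1.16 and 1.76. The reference lists Gm10180 and Rps27a-ps2 as processed pseudogenes, whose reads can be shared with other copies, so these values are uncertain.

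On the low side, the acinar genes Erp27, Cuzd1, Ctrc and Pnliprp2 had log2 fold changes of -1.90 to -0.99. Erp27, a redox-family protein of the endoplasmic reticulum, stood at 2.42 and 1.71 RPM, against 5.02 and 20.6 RPM, and wild-type replicate 2 was far above the other 3 libraries. Rec8, a cohesin subunit of meiosis, stood at 3.85 and 1.97 RPM, against 12.7 and 6.42 RPM (-1.41 ± 0.34). Bzrap1 stood at 2.67 and 2.52 RPM, against 10.6 and 6.57 RPM (-1.38 ± 0.32), and Tmem59l at 4.14 and 3.47 RPM, against 11.5 and 6.95 RPM (-1.05 ± 0.23). Xlr4a, from a family of near-identical X-linked copies, stood at 0.238 and 0.245 RPM, against 1.20 and 2.75 RPM (-1.21 ± 0.31). None of these genes was called.

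**Figure D2:**
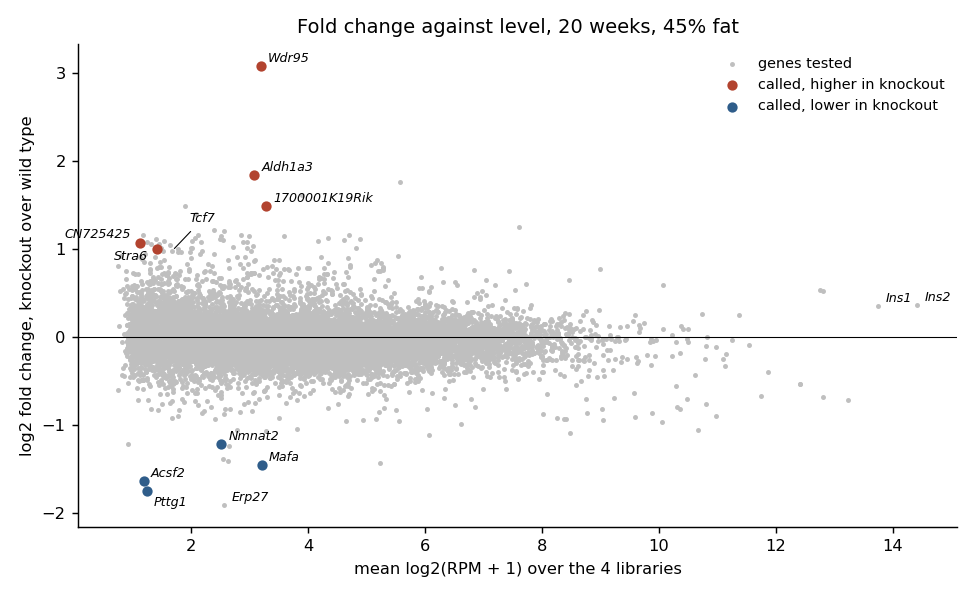
Log2 fold change of knockout-labelled over wild-type islets against the mean log2(RPM + 1) of the 4 libraries, with 1 point for each of the 13013 genes. The 5 genes called higher and the 4 called lower lie among genes of low to moderate level, and Ins1 and Ins2, at the right edge, stand at 0.36 and 0.37 without a call.

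The gene lists that follow are described by counts beside the same counts over all genes tested. Of these, 5405 of 13013 had a positive fold change, and the median log2 fold change was -0.04. Both knockout-labelled libraries lay above both wild-type libraries in 12.1% of them and below in 21.4%. Members of a list were measured in the same 4 libraries, so these counts are not of independent members. All list medians are on the log2 scale, and calls in the lists are those of limma in all 8 libraries unless another test is named. On leaving out each of the 4 libraries in turn, the median of 14 of the 28 lists changed sign, and it was highest without wild-type replicate 1 in 17 lists and lowest without wild-type replicate 2 in 18. Of the 482 tested list members, 235 changed direction on leaving out 1 library, and 0 of these were called. That 0 was fixed in advance, because the groups of each called gene did not overlap.

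Of the TCF and LEF factors and Wnt genes, 22 were tested and 0 were called in either direction, and 9 were positive (median -0.07, and -0.16 to 0.09 without 1 library). The related factor Lef1 stood at 11.4 and 4.86 RPM in knockout-labelled islets, against 3.67 and 2.37 RPM in wild type (1.10 ± 0.26, adjusted p = 0.163 by limma). Tcf7 and Lef1 were the highest members of the list and both had non-overlapping groups. Tcf7l2, which lies at a locus of type 2 diabetes risk in humans, stood at 59.1 and 60.7 RPM, against 75.9 and 54.5 RPM (-0.10), and Tcf7l1 at 14.8 and 13.8 RPM, against 14.7 and 13.5 RPM (0.02). Axin2, a feedback inhibitor and common target of the pathway, stood at 3.52 and 3.34 RPM, against 5.11 and 4.85 RPM (-0.43 ± 0.20). The groups did not overlap, and the adjusted p was 0.9997 by limma. Other targets had small differences, with Myc at 0.20, Ccnd1 at -0.14 and Cd44 at 0.39.

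Beta cell transcription factors and identity genes were mostly below wild type, with 1 called lower (Mafa), 0 called higher and 4 of 21 positive (median -0.17). The groups did not overlap in 9 of the 21, all of them lower (42.9%, against 21.4% of all genes tested). Nkx6-1 stood at 30.7 and 32.5 RPM, against 54.1 and 40.0 RPM (-0.54 ± 0.24). Pdx1, a master factor of the pancreas and of beta cells, was at 23.1 and 20.8 RPM, against 29.2 and 27.8 RPM (-0.36 ± 0.22), and Nkx2-2 at 55.7 and 49.4 RPM, against 67.3 and 67.6 RPM (-0.36 ± 0.24). The incretin receptor gene Glp1r stood at 142 and 120.4 RPM, against 182 and 163 RPM (-0.39 ± 0.26), and Gipr, the receptor of GIP, at 37.6 and 31.3 RPM, against 47.2 and 33.0 RPM (-0.20 ± 0.24). Each of these had a limma adjusted p above 0.99. DESeq2 called Nkx6-1 lower (adjusted p = 0.0122), while edgeR did not (adjusted p = 0.303). Pdx1, Glp1r and Gipr were not called by DESeq2 (adjusted p = 0.322, 0.302 and 0.852). Slc2a2, the glucose transporter, had a log2 fold change of -0.19 and Neurod1 one of 0.11. Without wild-type replicate 1 the median of the list was -0.05, and without replicate 2 it was -0.29.

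The hormone genes were not called by limma, and those of beta and PP cells lay above wild type. Ins1 stood at 14061 and 17377 RPM in knockout-labelled islets, against 11828 and 12582 RPM in wild type (0.36 ± 0.75). Ins2 had a log2 fold change of 0.37 ± 0.85. These standard errors come mostly from the trend over genes, so a call at this level would need a large change. Iapp, which encodes amylin, stood at 7279 and 9385 RPM, against 5543 and 5913 RPM (0.53 ± 0.60). Ppy, which encodes pancreatic polypeptide, stood at 504 and 877 RPM, against 399.5 and 382 RPM (0.77 ± 0.37). DESeq2 called Iapp (adjusted p = 0.0378) and Ppy (adjusted p = 0.00709), but not Ins1 (0.313) or Ins2 (0.400). The adjusted p by edgeR was 0.520 for Iapp and 0.365 for Ppy. Gcg stood at 1671 and 2271 RPM, against 2859 and 1542 RPM, and Sst at 353 and 390.0 RPM, against 415 and 305 RPM, so that both overlapped between the groups. In all, 10 of 17 hormone and processing genes were positive (median 0.02, and -0.14 to 0.21 without 1 library of this age). Of the 17, 6 lay wholly above wild type (35.3%, against 12.1% of all genes tested) and 1 wholly below (5.88%, against 21.4%). Among 10 factors of alpha, delta and PP cells 4 were positive and 0 were called (median -0.06, and 0.09 without wild-type replicate 1).

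Genes of stimulus-secretion coupling had 0 calls and 4 of 21 positive (median -0.22, and -0.08 without wild-type replicate 1). In 10 of the 21 the knockout-labelled libraries lay wholly below wild type (47.6%, against 21.4% of all genes tested). Unc13a, which primes granules for release, stood at 50.4 and 49.9 RPM, against 72.3 and 59.7 RPM (-0.38 ± 0.24). The KATP channel genes Abcc8 and Kcnj11 had log2 fold changes of -0.30 and -0.18, and the calcium channel genes Cacna1d and Cacna1a -0.28 and -0.26.

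Of the genes that mature beta cells keep low or that mark dedifferentiation, 11 were tested, 1 rose (Aldh1a3) and 8 were positive (median 0.26, and 0.11 without knockout-labelled replicate 2). In 7 of the 11 the knockout-labelled libraries lay wholly above wild type (63.6%, against 12.1% of all genes tested). Of these 7, Sox9 reached 1 RPM only in knockout-labelled islets, so the filter itself favoured its place among them. Sox9, a progenitor and duct factor, stood at 1.09 and 1.14 RPM, against 0.432 and 0.681 RPM (0.45 ± 0.20), and Ldha, lactate dehydrogenase, at 1.65 and 2.39 RPM, against 1.51 and 1.42 RPM (0.28 ± 0.20). Neither was called. With a minimum of 5 RPM the median was 0.91, as that filter left few members, and with no filter it was 0.05.

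In the retinoid pathway 2 of 12 tested genes rose, Aldh1a3 and Stra6, and 0 fell, while 8 of the 12 were negative and the median was -0.14. The retinoic acid receptor genes had values of both signs: Rarb stood at 3.58 and 3.29 RPM, against 2.68 and 1.98 RPM (0.42 ± 0.22), Rara had a log2 fold change of -0.39 ± 0.21 and Rarg one of -0.42 ± 0.23. Aldh1a1, a related dehydrogenase, stood at 0.936 and 1.61 RPM, against 1.25 and 1.70 RPM (-0.13 ± 0.21). Without knockout-labelled replicate 1 the median of the list was 0.05.

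**Figure D3:**
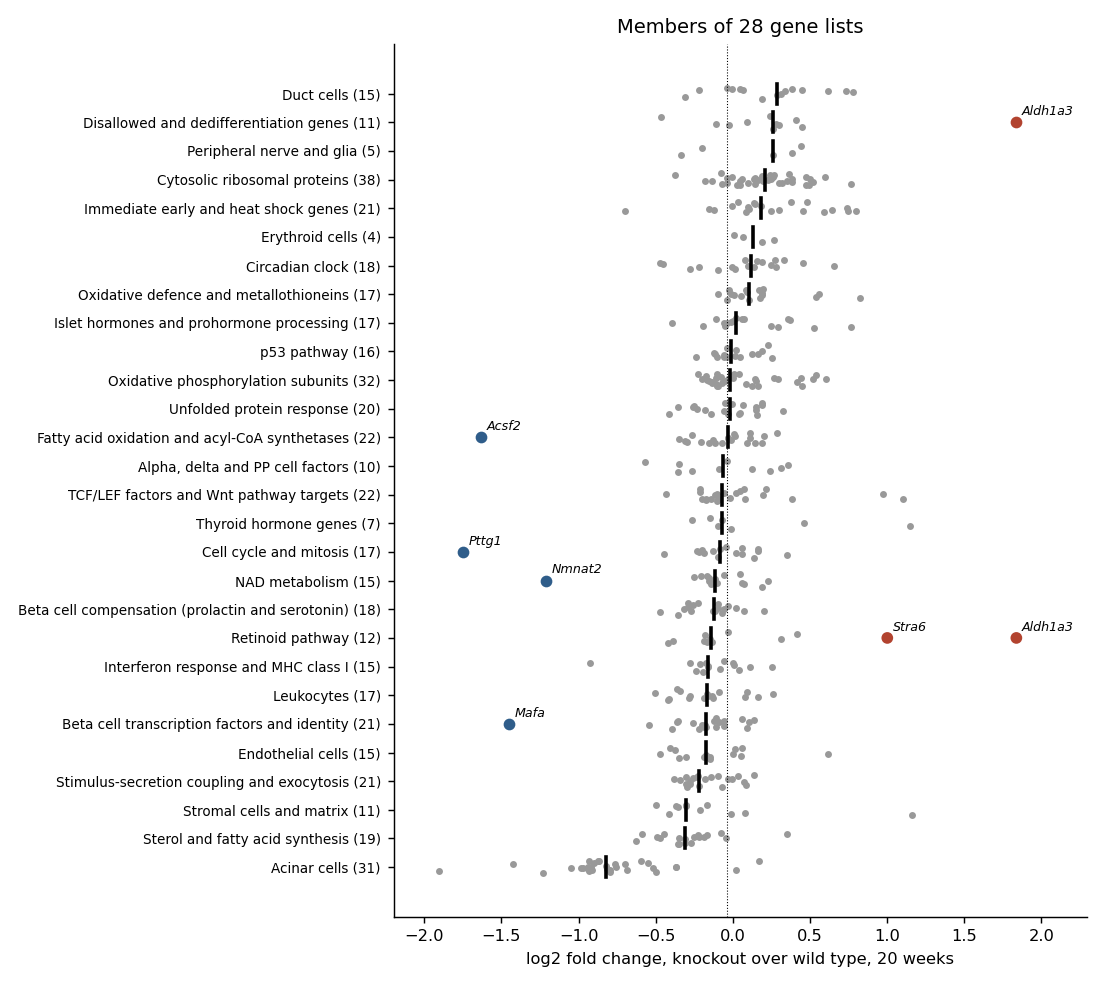
Log2 fold changes of the tested members of 28 gene lists, with the number of members in brackets. Grey points are genes without a call, red points genes called higher and blue points genes called lower. The black bars are list medians and the dotted line is the median of all genes, -0.04. The acinar list has the lowest median, -0.82, and each list with a coloured point holds 1 or 2 calls.

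Among 17 cell cycle genes Pttg1 was the 1 that fell and 0 rose (median -0.08). Mki67 (-0.20), Top2a (0.06), Ccna2 (0.14) and Cenpf (-0.08), which mark dividing cells, were not called, and Aurka, a mitotic kinase, was at 0.35 ± 0.18. Ccnd2, the main D-type cyclin of beta cells, had 331 and 428 RPM, against 504 and 522 RPM (-0.45 ± 0.31). The median of the list was 0.20 without knockout-labelled replicate 1 and -0.28 without replicate 2. Of 16 genes of the p53 pathway 8 were positive and 0 were called (median -0.01), with Cdkn1a at 0.01 and Trp53 at -0.06.

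Acsf2 was the 1 call among 22 genes of fatty acid oxidation and acyl-CoA synthesis (0 higher, median -0.03). Its relatives Acsf3, Acsl1 and Acsl4 were at -0.31, -0.03 and 0.11. Nmnat2 was likewise the 1 call among 15 genes of NAD metabolism (0 higher, median -0.12, and -0.01 without wild-type replicate 1), and the related enzyme genes Nmnat1 and Nmnat3 were at -0.15 and -0.06. Among 19 genes of sterol and fatty acid synthesis 0 were called and 1 was positive (median -0.31). Fasn, the fatty acid synthase, stood at 38.4 and 45.2 RPM, against 76.8 and 54.9 RPM (-0.63 ± 0.24, adjusted p = 0.776 by limma). Srebf1, a factor that drives such genes, stood at 30.2 and 24.8 RPM, against 50.3 and 34.5 RPM (-0.59 ± 0.23). The median was -0.04 without wild-type replicate 1 and -0.50 without replicate 2.

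Serpina7, which encodes the thyroxine-binding globulin of plasma, stood just outside the threshold, at 14.5 and 19.5 RPM in knockout-labelled islets, against 6.64 and 7.52 RPM in wild type. Its log2 fold change was 1.15 ± 0.22 (limma adjusted p = 0.0515). Of the 7 tested thyroid hormone genes 2 were positive and 0 were called (median -0.07, and 0.10 without wild-type replicate 1). In the list of prolactin signalling, serotonin and growth factors 3 of 18 were positive and 0 were called (median -0.12, with -0.03 without wild-type replicate 1 and -0.32 without replicate 2), with Stat5b at -0.47 ± 0.24.

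Cytosolic ribosomal protein genes were mostly above wild type, 30 of 38 positive, with 0 called (median 0.21, and 0.10 without knockout-labelled replicate 2). Of the 38, 15 lay wholly above wild type (39.5%, against 12.1% of all genes tested). Rpl13 stood at 8.65 and 8.54 RPM, against 4.61 and 6.14 RPM (0.60 ± 0.21). Such genes have many pseudogene copies, so their reads are uncertain. Of 32 oxidative phosphorylation subunits 16 were positive and 0 were called (median -0.02). The small subunits Atp5e, Ndufa1 and Cox7a2 were highest, at 0.60, 0.54 and 0.52.

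Stress genes held 0 calls. The unfolded protein response had 9 of 20 positive (median -0.02, and -0.21 to 0.19 without 1 library), with Trib3 at -0.41 and the chaperone gene Hspa5 at 0.19. Immediate early and heat shock genes had 17 of 21 positive (median 0.19, but -0.05 without wild-type replicate 2), with Hspa1a at 61.0 and 41.5 RPM, against 45.1 and 18.0 RPM (0.80 ± 0.32). Oxidative defence genes had 13 of 17 positive (median 0.11, and 0.03 without wild-type replicate 2), and Slc7a11, the cystine transporter, stood at 6.06 and 11.7 RPM, against 4.09 and 4.62 RPM (0.82 ± 0.32, adjusted p = 0.759 by limma). Interferon and MHC class I genes had 4 of 15 positive (median -0.16, but 0.05 without wild-type replicate 1), with the antiviral gene Rsad2 at 2.71 and 3.01 RPM, against 9.04 and 4.36 RPM (-0.93 ± 0.27). Circadian clock genes had 12 of 18 positive (median 0.12, but -0.19 without wild-type replicate 2). Arntl and Npas2, of the positive limb of the clock, were at -0.45 and -0.47, while Cry1, of the negative limb, was at 0.66 ± 0.28, and 0 were called.

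Markers of other pancreatic cells differed between libraries. The 31 tested acinar genes had 0 calls, 2 positive members and a median of -0.82. Their summed level was 11566 and 13647 RPM in knockout-labelled islets, against 12944 and 38031 RPM in wild type, so that wild-type replicate 2 stood apart and the other 3 libraries were alike. The median of the list was -1.65 leaving out wild-type replicate 1 and -0.02 leaving out replicate 2. Without wild-type replicate 2 limma called 20 genes higher and 11 lower, 7 of the 9 among them, with Stra6 and 1700001K19Rik lost. With the acinar mean as a covariate it called 16 higher and 10 lower, all 9 among them. Duct genes had 0 calls and 11 of 15 positive (median 0.28, and 0.12 without wild-type replicate 2), with Cftr at 2.57 and 2.58 RPM, against 1.24 and 1.44 RPM (0.62 ± 0.18), and Spp1 at 17.3 and 23.8 RPM, against 9.05 and 14.2 RPM (0.78). Their summed level was 372 and 381 RPM, against 380 and 293 RPM.

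The remaining lists of cell types held 0 calls. Of 15 endothelial genes 5 were positive (median -0.17, with 0.03 without knockout-labelled replicate 1 and -0.33 without replicate 2), and of 11 stromal genes 2 were positive (median -0.30, and -0.08 without knockout-labelled replicate 1), with Pdgfrb at -0.50 and Fn1 at 1.16. Of 17 leukocyte genes 4 were positive (median -0.17, with -0.05 without knockout-labelled replicate 1 and -0.43 without replicate 2), with summed levels of 62.7 and 87.4 RPM, against 87.7 and 82.3 RPM. Of 5 nerve and glia genes 3 were positive (median 0.26, and 0.08 without wild-type replicate 2), and of 4 erythroid genes 4 were positive (median 0.13, and 0.07 to 0.25 without 1 library). The part of these cells in the calls was not tested, apart from the acinar mean.

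A targeted allele is inherited together with the chromosome around it, so genes were next ordered along the chromosome of Tcf7. Tcf7 lies on chromosome 11 in the annotation, as do 1030 of the 12786 tested genes with a chromosome (8.06%). Of the 4 genes that fell 2 lie there: Pttg1, 60 tested genes before Tcf7, and Acsf2, 428 tested genes after it. In the 25 tested genes on each side of Tcf7, 0 of 50 were called. As 0.0692% of all tested genes were called, this count says little about linkage. The groups did not overlap in 16 of the 50, against 12.1% above and 21.4% below over all genes. An unadjusted limma p under 0.05 was found for 2 of the 50, against 4.54% of all genes. The median log2 fold change was 0.03 and the values ran from -0.59 to 0.75. The 5 tested genes on each side were within 0.34 of 0, among them Vdac1 (0.05), Skp1a (0.17), Ube2b (0.05) and Hspa4 (-0.02), with Fstl4 at 0.34 ± 0.33. Genes next to the calls did not share their size. Slu7 and Atp10b, beside Pttg1, were at -0.12 and 0.14. Rsad1, beside Acsf2, stood at 1.02 and 1.01 RPM, against 2.95 and 2.249 RPM (-0.83 ± 0.26, adjusted p = 0.4998 by limma), and Lrrc59, on the other side, was at -0.11. The strain of the cells in which the allele was made is not stated in these sources, and linkage was not tested.

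**Figure D4:**
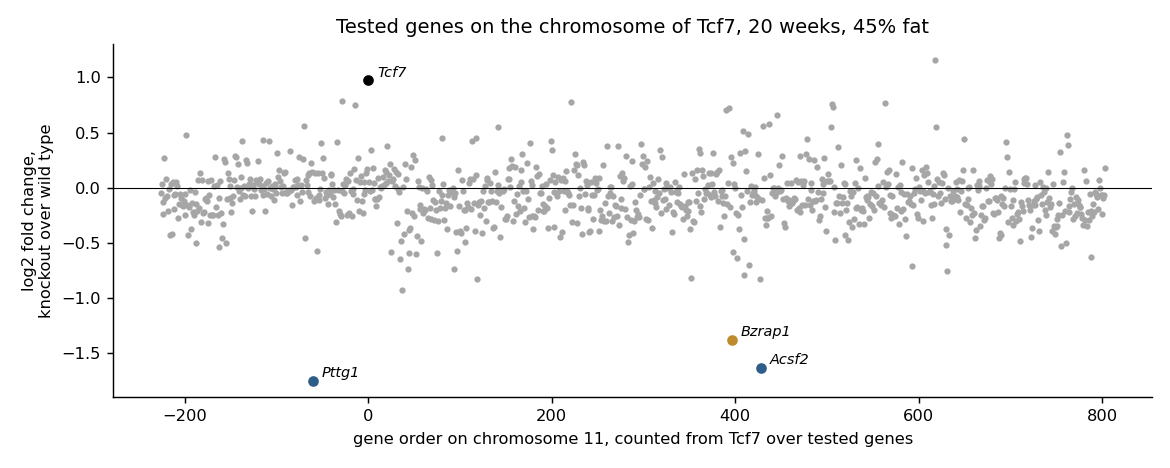
Log2 fold change of knockout-labelled over wild-type islets for the 1030 tested genes of chromosome 11, in their order and counted from Tcf7 at 0. Blue points are the called genes Pttg1 and Acsf2, the black point is Tcf7, at 0.97, and the brown point is Bzrap1, at -1.38 without a call. The 50 tested genes nearest to Tcf7 lie between -0.59 and 0.75.

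The libraries were also compared as wholes. Over the 13013 genes the first principal component of the 4 libraries held 38.3% of the variance, with scores of -16.7 and -10.2 in the knockout-labelled libraries and 12.1 and 14.8 in wild type. The second held 34.8% and set the wild-type libraries apart from each other, at 17.4 and -17.2, with the knockout-labelled ones at -6.34 and 6.12. Of the 9 called genes 7 were higher in replicate 1 than in replicate 2 in both genotypes, the exceptions being Acsf2 and Aldh1a3. Over all 13013 genes the differences between replicates 1 and 2 had a correlation of 0.11 between the genotypes. The replicate numbers are not from the labels and pair no libraries, so the count of 7 rests on an arbitrary order.

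The last question was whether the genotype difference at 20 weeks on 45% fat differed from that at 8 weeks on 10% fat, where age and diet changed together. The difference of the log2 fold changes passed for 8 of the 13013 genes by limma (0.0615%), and 3 of these were also called at 20 weeks: Aldh1a3, Wdr95 and Pttg1. Aldh1a3 had a log2 fold change of 1.84 at 20 weeks and -1.39 at 8 weeks, where it stood at 0.606 and 1.18 RPM, against 3.86 and 3.94 RPM in wild type. Pttg1 stood at 2.85 and 2.03 RPM at 8 weeks, against 2.74 and 3.12 RPM in wild type, with a log2 fold change of -0.20. Mafa was high in all libraries of 8 weeks, at 29.8 and 28.2 RPM, against 39.9 and 30.5 RPM in wild type. Its log2 fold change was -1.45 at 20 weeks and -0.26 at 8 weeks, and the difference between the settings was not called. Acsf2 and Nmnat2 were below wild type at both ages, with log2 fold changes of -0.79 and -0.60 at 8 weeks, and a difference between the ages was not called for either.

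**Figure D5:**
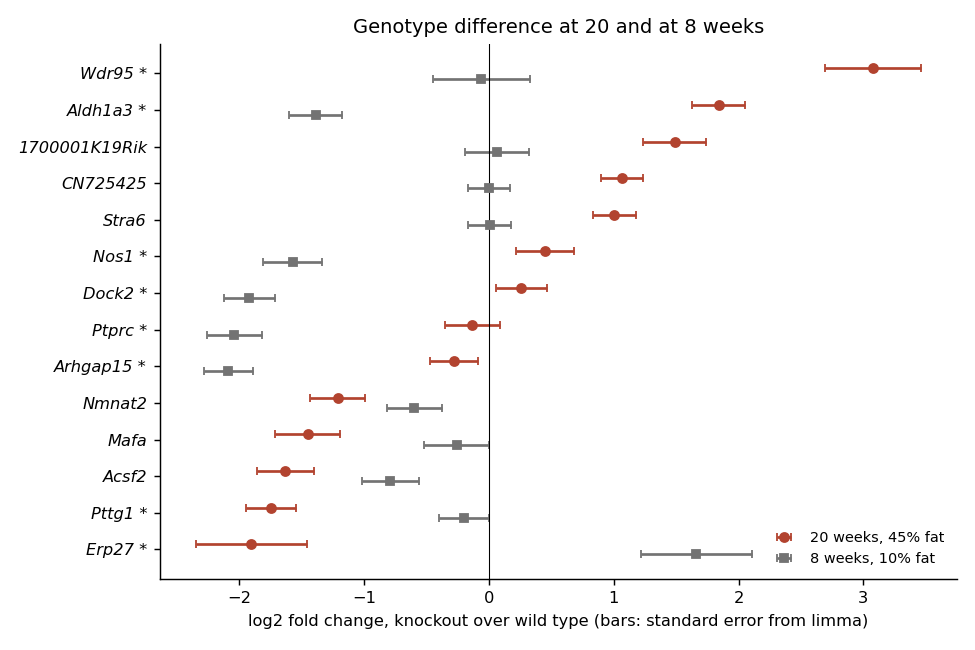
Log2 fold change of knockout-labelled over wild-type islets at 20 weeks on 45% fat (red) and 8 weeks on 10% fat (grey) with standard errors from limma, for the genes called at 20 weeks or in the difference between the settings. An asterisk marks the 8 genes with a called difference, of which Aldh1a3 lies at 1.84 and -1.39 and Pttg1 at -1.75 and -0.20.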

How the data were processed

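Total RNA of islets was depleted of ribosomal RNA and made into Illumina TruSeq libraries, per the labels' protocols. The build mm9 and the tools TopHat 1.4.1, FastQC and CASAVA 1.8 appear, with no role given, in the submitters' processing notes. The counting tool, the annotation and the use of strand are not stated there. The authors deposited RPM values for 22632 genes. In each library 100% of the values were whole multiples of 1 read within 0.01 of a read, so reads were recovered, at 0.00592 to 0.0170 RPM per read in the 4 libraries of 20 weeks. Replicates differed by more than sampling noise (chi-square per degree of freedom 42.9 in the knockout-labelled and 339 in the wild-type libraries of 20 weeks), and none was merged.

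The members of the gene lists, the lists and the rule for named genes were chosen with earlier results of these data known. Genes that reached 1 RPM in 2 or more of the 4 libraries were tested on log2(RPM + 1), which understates changes of low genes. limma 3.58.1 in R 4.3.3 was fitted to all 8 libraries, with 1 mean per group, a mean-variance trend, 4 residual and 15.2 prior degrees of freedom, and Benjamini-Hochberg adjustment over all genes tested, at 0.05. Knockout over wild type at 20 weeks was tested, and that contrast minus the one at 8 weeks. Named were Tcf7, all called genes, the 12 highest and 12 lowest fold changes, 3 members per list by p, a set of hormone and beta cell genes and 5 genes on each side of Tcf7. Other list members were added for their role, Ccdc33, Chad, Rsad1, Lrrc59, Slu7 and Atp10b as neighbours of called genes.

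There were 20 alternatives: other scaling, filters, pseudocount, trend, threshold and libraries in the fit, edgeR 4.0.16 and DESeq2 1.42.0 on recovered reads, the acinar mean as a covariate, and leaving out each of the 8 libraries. The fits were tested on simulated data. By their identifiers, 25 symbols lost to date formatting were put back, 129 were repeated, and 20750 identifiers (91.7%) matched GENCODE M21, which is on another build than mm9 and was used for names, gene order and overlaps. Promoters are those of RefSeq. Figures were drawn with matplotlib 3.10.9 in Python 3.11.15. Some genes of the lists are not reported here by name.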

Additional observations from a re-analysis of the deposited data

Results flagged for a closer look

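For 8 genes the genotype difference at 20 weeks on 45% fat differed from that at 8 weeks on 10% fat by limma, and no explanation was weighed. Aldh1a3 had the smallest p-value, with a difference of log2 fold changes of 3.23 ± 0.30 (limma adjusted p = 2.0e-05), because the knockout-labelled islets were above wild type at 20 weeks and below it at 8 weeks. Wdr95, near 0 RPM in each of the 8-week libraries, had a difference of 3.14 ± 0.55 (limma adjusted p = 0.0317). Those libraries add little spread, so this standard error may be too small. Pttg1, level at 8 weeks and low in knockout-labelled islets at 20 weeks, had a difference of -1.55 ± 0.28 (limma adjusted p = 0.0465). That call was kept under 8 of 18 alternatives.

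For the other 5 genes no genotype difference was called at 20 weeks. Ptprc, the pan-leukocyte antigen CD45, had a difference of 1.91 ± 0.31 (limma adjusted p = 0.0176). At 20 weeks it stood at 1.94 and 3.43 RPM in knockout-labelled islets and 2.62 and 3.33 RPM in wild type. At 8 weeks it stood at 1.59 and 1.86 RPM in knockout-labelled islets and 9.15 and 11.3 RPM in wild type. Dock2, a Rac activator of leukocytes, had a difference of 2.18 ± 0.29 and the leukocyte gene Arhgap15 one of 1.81 ± 0.28. Nos1, the neuronal nitric oxide synthase, had a difference of 2.02 ± 0.33. At 20 weeks leukocyte genes as a list summed to 62.7 and 87.4 RPM in knockout-labelled islets and 87.7 and 82.3 RPM in wild type. At 8 weeks they summed to 64.1 and 64.8 RPM, against 137 and 154 RPM. The part of these cells was not tested.

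Erp27 had a difference of -3.57 ± 0.63 (limma adjusted p = 0.0317). At 20 weeks it stood at 2.42 and 1.71 RPM in knockout-labelled islets, against 5.02 and 20.6 RPM in wild type. At 8 weeks it stood at 15.3 and 6.11 RPM, against 1.32 and 4.001 RPM. The acinar list, which holds Erp27, summed to 11566 and 13647 RPM, against 12944 and 38031 RPM, at 20 weeks and to 31466 and 16100 RPM, against 3821 and 10861 RPM, at 8 weeks.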

How the results depend on the processing

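Against 9 calls at 20 weeks, limma called 1 gene with median-of-ratios scaling, 1 with no filter, 38 with a minimum of 5 RPM (28 higher and 10 lower), 4 with a pseudocount of 0.1 and 4 without the trend. It called 270 in the 4 libraries alone, 18 at a threshold of 0.10 (14 higher and 4 lower) and 26 with the acinar mean as covariate. edgeR called 0 in all 8 libraries and 0 in the 4 libraries alone, with 1405 and 1366 genes at an unadjusted p under 0.05, and DESeq2 called 139. Leaving out each library gave 19 to 90 genes. Of the calls, 5 of 38 at a minimum of 5 RPM, 4 of 4 with the other pseudocount and 4 of 4 without the trend were among the 9. The share of higher calls ran from 50% to 100% where any gene was called, against 55.6%. For the difference between the settings, with 8 calls, median-of-ratios scaling gave 3, a minimum of 5 RPM 63 (16 positive and 47 negative), no trend 3, edgeR 3, DESeq2 78 and the acinar covariate 2, and leaving out each library gave 4 to 115. Of the 8, Aldh1a3 kept its call under each of 18 alternatives, Dock2 under 16 and Arhgap15 under 15, while Nos1, Ptprc, Wdr95 and Erp27 kept it under 11 and Pttg1 under 8. Each of these 5 lost it with median-of-ratios scaling, with no filter, with no trend, with edgeR, with the acinar covariate and without 8-week knockout-labelled replicate 1. The cause of these shifts was not tested.

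The 9 called genes kept their direction under each alternative that gave a value. For most alternatives this was fixed in advance. The groups of these genes did not overlap, so leaving out 1 library could not change their direction. Another filter, threshold or trend, or the 4 libraries alone, leaves the log2 fold change as it was. Of the 118 genes chosen by the rule for named genes, direction changed for 17, none of them called at 20 weeks and each within 0.34 of 0 on the log2 scale. Leaving out each library in turn gave ranges of -0.429 to 0.162 for Ptprc, -0.476 to 0.002 for Sesn2, -0.092 to 0.601 for Trp53inp1, -0.117 to 0.77 for Atf3, -0.002 to 0.461 for 1110020G09Rik, -0.536 to 0.01 for Ttr and -0.07 to 0.202 for Alas2. The ranges were -0.554 to 0.337 for Gcg, -0.162 to 0.283 for Sst, -0.45 to 0.055 for Gipr, -0.108 to 0.213 for Ube2b, -0.138 to 0.091 for Cdkl3 and -0.025 to 0.293 for Ppp2ca. They were -0.074 to 0.172 for Vdac1, -0.129 to 0.066 for 9530068E07Rik, -0.007 to 0.686 for Fstl4 and -0.135 to 0.089 for Hspa4. The acinar covariate gave -0.094 for Sst, -0.024 for Ube2b and -0.034 for Vdac1. Median-of-ratios scaling gave 0.003 for Cdkl3 and 0.008 for Hspa4. On recovered reads edgeR, edgeR in the 4 libraries and DESeq2 gave 0.014, 0.019 and 0.02 for Cdkl3, 0.01, 0.015 and 0.017 for 9530068E07Rik, and 0.019, 0.024 and 0.026 for Hspa4. Among genes named for their role, the range without 1 library was -0.336 to 0.135 for Tcf7l2, -0.36 to 0.076 for Ccnd1, -0.295 to 0.322 for Cdkn1a and -0.921 to 0.518 for Mki67. Over the 28 list medians, each under scaling, filter, pseudocount and left-out libraries, 27 values moved by more than the spread between replicates and 337 did not. Leaving out an 8-week library cannot change a median at 20 weeks, so part of the 337 was fixed in advance. The tally therefore does not show that the lists were stable. Without 1 library of 20 weeks, the median of 14 of the 28 lists changed sign.

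No paired analysis was possible because the labels carry no replicate numbers. With 2 libraries a group, the spread of a gene rests on few values. Reads were not marked by molecule, so read counts are not counts of molecules, and low genes such as Pttg1 and Acsf2, with 11 to 28 reads in a knockout-labelled library, have wide counting error.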
